A study of Mus musculus with 157 samples.

Results

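Hif1a and 9 mRNAs of glucose uptake and glycolysis were followed in ribosome-bound RNA of LPS-activated splenic B cells with and without etoposide. The members were the rows of the deposited read count table named Hif1a, Slc2a1, Hk2, Gpi1, Pfkl, Aldoa, Tpi1, Pgk1, Eno1 and Ldha, which are 10 of the 19600 genes in the table. The rule used no measured value.

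Hif1a encodes the oxygen-regulated subunit of the transcription factor HIF-1, which pairs with Arnt, binds short DNA motifs beside its target genes and raises transcription of many glycolytic enzymes. Slc2a1 encodes the glucose transporter Glut1, and Hk2 encodes a hexokinase that traps glucose in the cell as glucose 6-phosphate. Gpi1, Pfkl, Aldoa and Tpi1 encode the enzymes that carry this sugar to triose phosphates, Pgk1 and Eno1 encode enzymes of the pay-off phase, and Ldha encodes the lactate dehydrogenase subunit that turns pyruvate into lactate. Activated B lymphocytes take up more glucose as they grow and divide, and HIF-1α protein is controlled through its translation and breakdown as well as through its mRNA.

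All cells were primary splenic B cells of C57BL/6Babr mice grown with the mitogen LPS at 10 µg/ml, so there was no unstimulated group. The LPS group had 48 h of LPS. The LPS+ET group also had 4 h of 20 µM etoposide (ET), a topoisomerase II poison that leaves DNA double-strand breaks. In the LPS+ET+KU group 10 µM KU55933 (KU), an inhibitor of the DNA damage kinase ATM, was added after 47 h of LPS and 1 h ahead of etoposide, and this group is called the inhibitor group below. The samples used here include no inhibitor without etoposide. The study gave the ages of the mice only as a range for all its experiments, and the labels do not say how many animals stand behind a gradient, so the p-values measure the spread between gradients.

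Cytoplasmic extracts were spun through sucrose gradients and 3′ end tags were counted in 13 fractions, of which 4 to 7 held monosomes, 8 to 10 light polysomes and 11 to 16 heavy polysomes. The table held 12 complete gradients, 4 per condition. Each of 4 codes in the column headers (LUL15 to LUL18), called library pools here, covered 1 gradient of each condition. The headers and labels do not say what the code stands for. Where columns matched a single sample, the code went with the replicate number of the labels, so pool and replicate cannot be told apart. Library totals ran from 14724 to 4170688 counts with a median of 811932, and gradient totals ran from 6404957 to 21449781. Each fraction library was made from the same concentration of RNA, so values are shares of the ribosome-bound tags and not amounts of mRNA per cell. All 8 B cell marker genes on the list used were above 0 in every gradient and summed to 6698 to 11265 CPM (counts scaled to a gradient total of 1000000), against 82.8 to 374 CPM for T cell, 32.9 to 167 CPM for myeloid and 23 to 177 CPM for erythroid markers.

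Pool LUL16 stood apart from the other pools for these genes. Of the 9 members with enough counts to test, 7 had their highest CPM of the LPS+ET group in pool LUL16, and again 7 of 9 in the LPS+ET+KU group, whereas among all 12755 genes tested 31.2% and 35.1% had it there. In the LPS group 2 of 9 members were highest in pool LUL16, beside 19.7% of all genes. Counts of the members summed to 6555 CPM in the LPS+ET gradient and 7352 CPM in the LPS+ET+KU gradient of this pool, and to between 1534 and 2848 CPM in each of the other 10 gradients. Every comparison below was therefore made with and without pool LUL16. It was also made with the pool as a block, because gradients of one pool deviated together. Pool LUL16 was singled out by the values of these same members. Calls made without it follow a choice made on the tested values and describe the remaining pools only. Where groups are said below not to overlap, or to lie wholly above or below each other, the share of all genes that do the same was not computed.

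The tags of 8 members came from annotated 3′ untranslated exons of the mouse genome build GRCm38. Hif1a was counted at 73946891 in the gene at chr12:73901375-73947530 (plus strand), 639 bases inside the nearest annotated transcript end. Ldha was counted at the last base of chr7:46841475-46855627 (plus strand), Aldoa at the end of chr7:126795234-126800751 (minus strand) and Slc2a1 at 119137330 in chr4:119108711-119137983 (plus strand). Gpi1 (chr7:34201330-34230336), Pfkl (chr10:77986947-78010083) and Tpi1 (chr6:124810586-124814296) lie on the minus strand, and Eno1 (chr4:150236721-150248879) on the plus strand. Hk2 (chr6:82725025-82774454, minus strand) had 52.6% of its counts at the 3′ end and 47.5% at a position in its 5′ untranslated exon, so its sum mixes a pair of places. The 23 tags credited to Pgk1 (chrX:106187100-106203699, plus strand) lay in an intron or beyond the gene model, and its values are therefore not a measure of the mRNA.

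Several members have near-identical copies in the annotation, defined here as transcripts at 95% identity or more over at least 200 bases. Eno1 had 971 counts in all while 1 such copy in the table had 39122, so the level of Eno1 is uncertain. Ldha and Pgk1 had 4 copies each and Tpi1 had 1, none of them in the table, and Gpi1 had 1 copy with 103 counts. No copy was found for Hif1a, Slc2a1, Hk2, Pfkl or Aldoa.

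The promoters of a few members are shown because HIF-1 binds the core letters ACGTG or GCGTG, and the members differ in whether these letters occur near the transcription start. Each window is a RefSeq sequence (GRCm38.p6) of 300 bases, 250 before and 50 after the start, with either motif on either strand in capitals and matches on the other strand reading as CACGT or CACGC. The run CACGTG holds ACGTG on both strands and counts as 2 matches.
Hif1a (chr12:73907617-73907916, plus strand, 3 matches): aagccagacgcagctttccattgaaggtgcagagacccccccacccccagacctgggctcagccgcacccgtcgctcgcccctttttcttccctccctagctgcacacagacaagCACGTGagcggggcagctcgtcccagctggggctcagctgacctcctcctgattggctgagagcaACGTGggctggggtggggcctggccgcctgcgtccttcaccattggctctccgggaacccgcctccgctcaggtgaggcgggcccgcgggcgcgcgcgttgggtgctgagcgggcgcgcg
Slc2a1 (chr4:119108495-119108794, plus strand, 2 matches): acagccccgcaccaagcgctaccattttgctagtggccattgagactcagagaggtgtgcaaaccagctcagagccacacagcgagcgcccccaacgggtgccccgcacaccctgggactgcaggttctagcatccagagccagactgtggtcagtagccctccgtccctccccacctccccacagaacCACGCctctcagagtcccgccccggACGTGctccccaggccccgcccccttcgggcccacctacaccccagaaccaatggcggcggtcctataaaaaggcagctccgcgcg
Ldha (chr7:46845554-46845853, plus strand, 7 matches): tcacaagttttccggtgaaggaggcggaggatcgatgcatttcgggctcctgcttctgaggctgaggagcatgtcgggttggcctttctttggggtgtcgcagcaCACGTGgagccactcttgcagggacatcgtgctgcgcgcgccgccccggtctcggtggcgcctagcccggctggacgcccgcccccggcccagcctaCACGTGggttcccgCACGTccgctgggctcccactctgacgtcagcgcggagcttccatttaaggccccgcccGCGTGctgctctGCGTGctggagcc
Tpi1 (chr6:124814109-124814408, minus strand, no match): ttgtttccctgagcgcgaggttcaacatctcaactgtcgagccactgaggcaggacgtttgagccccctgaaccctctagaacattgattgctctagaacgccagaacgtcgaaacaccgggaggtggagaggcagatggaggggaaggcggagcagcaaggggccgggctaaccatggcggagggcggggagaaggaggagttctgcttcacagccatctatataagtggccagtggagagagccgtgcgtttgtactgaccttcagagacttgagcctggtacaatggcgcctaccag

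RefSeq gave 15 windows for the 10 members, and 12 windows of 8 members held at least 1 of the motifs. Among all 32851 promoter windows 43.8% held either motif, 19.6% held ACGTG and 32.4% held GCGTG, so a match is common in windows of this length. ACGTG occurred in 7 windows of 6 members. Tpi1 and Gpi1, for a triose and a hexose phosphate isomerase, had neither motif in their single windows, and Ldha had the most matches among the members.

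Hif1a mRNA had higher values in etoposide-treated than in LPS-only gradients of every pool, and its call depended on how pools were handled. In pools LUL15, LUL16, LUL17 and LUL18, in this order here and below, LPS gradients had 257, 144, 202 and 164 CPM, LPS+ET gradients had 461, 259, 318 and 249 CPM, and LPS+ET+KU gradients had 352, 167, 219 and 199 CPM. The groups overlapped, since the LPS gradient of pool LUL15 lay above the LPS+ET gradient of pool LUL18. Within each pool, however, the order was the same, with LPS lowest, LPS+ET+KU between and LPS+ET highest.

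The Hif1a means were 192 ± 49.6 CPM in LPS, 321 ± 97.6 CPM in LPS+ET and 234 ± 81.2 CPM in the inhibitor group (SD, n = 4). Log2 ratios of LPS+ET to LPS within a pool were 0.84, 0.84, 0.66 and 0.60, and those of LPS+ET+KU to LPS+ET were -0.39, -0.63, -0.54 and -0.32. Across the 12 gradients edgeR's quasi-likelihood test gave a log2 difference of 0.63 ± 0.24 (SE) for LPS+ET over LPS with adjusted p = 0.0755, which is not a call at the adjusted p of 0.01 used throughout. With the pool as a block the difference was 0.62 ± 0.12 with adjusted p = 0.00102, and Hif1a was called higher. Without pool LUL16 the unblocked value was 0.60 ± 0.23 with adjusted p = 0.0806, again not a call.

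Between LPS+ET+KU and LPS+ET the Hif1a difference was -0.46 ± 0.24 with adjusted p = 0.369 by edgeR, and -0.47 ± 0.12 with adjusted p = 0.018 with the block. Of these fits it was called lower where pool LUL16 was left out and the block kept, at -0.41 ± 0.10 with adjusted p = 0.00359. LPS+ET+KU against LPS gave 0.17 ± 0.24 in the unblocked fit of all 12 gradients. In these bulk extracts fewer cells of a type and less RNA per cell cannot be told apart.

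**Figure D1:**
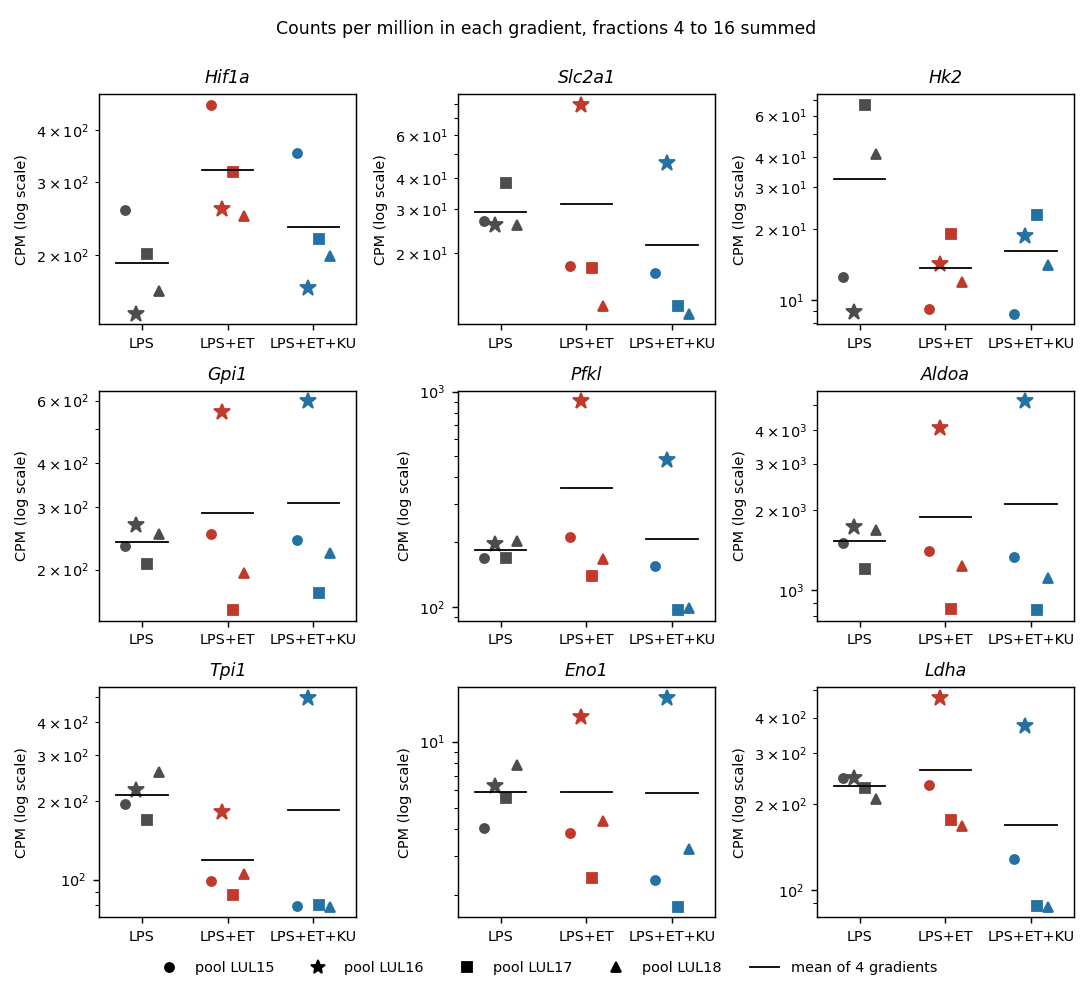
Ribosome-associated level of the 9 testable members in CPM (log axis) for each gradient by condition, with a marker per library pool (star, pool LUL16) and a line at the mean of 4 gradients. Hif1a is higher in the LPS+ET gradient of each pool, and the LUL16 stars stand above the other pools for most glycolysis members in the etoposide groups.

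The glucose transporter mRNA divided by pool. Slc2a1 had 27, 25.9, 38.4 and 25.9 CPM in LPS, 17.6, 79.3, 17.4 and 12.2 CPM in LPS+ET and 16.6, 46.2, 12.2 and 11.3 CPM in the inhibitor group. In pools LUL15, LUL17 and LUL18 each etoposide value lay below every LPS value, and in pool LUL16 both lay above every LPS value. The difference between LPS+ET and LPS was 0.00 ± 0.58 by edgeR over all 12 gradients, and -1.07 ± 0.21 with adjusted p = 0.00328 without pool LUL16. For LPS+ET+KU against LPS the fit without that pool gave -1.30 ± 0.21 with adjusted p = 0.00144, a call in both etoposide groups.

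Hk2 had 12.5, 8.95, 66.7 and 41.2 CPM in LPS, with an SD of 27.1 CPM around a mean of 32.3 CPM (n = 4). LPS+ET gradients had 9.17, 14.2, 19.1 and 12.0 CPM, those of the inhibitor group had 8.75, 18.6, 22.8 and 14.1 CPM, and all 3 groups overlapped. The difference between LPS+ET and LPS was -1.34 ± 0.55 with adjusted p = 0.096 by edgeR, and with pool LUL16 left out and the block kept it was -1.54 ± 0.17, a call.

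Gpi1, which converts glucose 6-phosphate to fructose 6-phosphate, had 233, 267, 208 and 251 CPM in LPS, 252, 556, 153 and 196 CPM in LPS+ET and 242, 598, 171 and 222 CPM in the inhibitor group. Outside pool LUL16 the groups overlapped, with means of 231 ± 22, 201 ± 49.6 and 212 ± 36.5 CPM (SD, n = 3). Gpi1 level was not called in any of the fits of all fractions described here.

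Pfkl, the liver-type subunit of the rate-controlling phosphofructokinase, had 169, 195, 170 and 203 CPM in LPS, 212, 904, 139 and 168 CPM in LPS+ET and 155, 479, 96.6 and 99.4 CPM in the inhibitor group. All pools had less Pfkl in the inhibitor group than in LPS+ET, with log2 ratios of -0.45, -0.91, -0.52 and -0.76. The edgeR difference between LPS+ET+KU and LPS+ET was -0.80 ± 0.61 over all gradients, and -0.56 with adjusted p = 0.00155 without pool LUL16 and with the block.

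Aldoa, which splits fructose 1,6-bisphosphate, had 1508, 1734, 1208 and 1683 CPM in LPS, 1411, 4078, 850.5 and 1236 CPM in LPS+ET and 1334, 5157, 842 and 1113 CPM in the inhibitor group. The LPS+ET over LPS difference was 0.20 ± 0.57 by edgeR. Its sign turned without pool LUL16, where the blocked fit gave -0.46 with adjusted p = 0.000882 and -0.53 with adjusted p = 0.00022 for LPS+ET+KU against LPS.

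Tpi1, the triose phosphate isomerase, had no overlap between its 3 groups outside pool LUL16. The share of all genes with such groups was not computed. It had 194, 221, 169 and 257 CPM in LPS, 99.1, 182, 87.3 and 105 CPM in LPS+ET and 79.4, 497, 80.2 and 78.8 CPM in the inhibitor group. Outside pool LUL16 all LPS values exceeded all LPS+ET values, which in turn exceeded all LPS+ET+KU values, with means of 207 ± 45.4, 97.3 ± 9.16 and 79.5 ± 0.721 CPM (SD, n = 3). The edgeR difference between LPS+ET and LPS was -0.94 ± 0.55 with adjusted p = 0.25 over all 12 gradients and -1.20 ± 0.20 with adjusted p = 0.0012 without pool LUL16. For LPS+ET+KU against LPS the difference without that pool was -1.48 ± 0.20 with adjusted p = 0.000474, whereas the LPS+ET+KU gradient of pool LUL16 stood at 497 CPM.

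Pgk1 had 0 to 2 counts in each LPS and LPS+ET gradient and 3, 12, 2 and 1 counts in the inhibitor group, 23 in all, and was not tested. Eno1, with 4.06, 6.28, 5.53 and 7.80 CPM in LPS, 3.84, 13.0, 2.41 and 4.36 CPM in LPS+ET and 2.36, 15.9, 1.77 and 3.23 CPM in the inhibitor group, was counted at a low level beside its copy. Summed with the copy, Eno1 ran from 189 to 360.1 CPM with LPS alone, from 115 to 525 CPM in LPS+ET and from 87.7 to 569 CPM in the inhibitor group. The sum gave no call by edgeR, with differences of -0.16 for LPS+ET against LPS and -0.27 for LPS+ET+KU against LPS, and of -1.19 with adjusted p = 0.0137 for the latter without pool LUL16.

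Ldha mRNA had its lower values in the inhibitor group of every pool, set against LPS+ET. It had 247, 245, 227 and 208 CPM in LPS, 233, 470.1, 176 and 167 CPM in LPS+ET and 128, 373, 87.7 and 87.6 CPM in the inhibitor group. Log2 ratios of LPS+ET+KU to LPS+ET were -0.86, -0.33, -1.01 and -0.94 in the 4 pools. Outside pool LUL16 the LPS+ET+KU values lay below all values of the other groups, with means of 227 ± 19.3, 192 ± 35.7 and 101 ± 23.4 CPM (SD, n = 3).

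Between LPS+ET and LPS the Ldha level differed by 0.07 ± 0.45 over all gradients, without a call. For LPS+ET+KU against LPS+ET the difference was -0.64 ± 0.45 by edgeR over all gradients, which was not a call, and -0.75 ± 0.23 with adjusted p = 0.043 with the block. Without pool LUL16 it was -0.92 ± 0.16 with adjusted p = 0.00847. Against LPS the inhibitor group was at -0.88 ± 0.24 with adjusted p = 0.00858 with the block and at -1.28 ± 0.16 with adjusted p = 0.000334 without pool LUL16.

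Over the 12 gradients none of the 9 tested members was called in any of the 3 comparisons by edgeR, and none by DESeq2. At an unadjusted p under 0.05 edgeR had 2 (Hif1a and Hk2), 0 and 0 members for LPS+ET against LPS, the inhibitor group against LPS+ET and the inhibitor group against LPS. Among the 12755 genes tested 12.7%, 0.455% and 10.7% were called, and 4384, 2031 and 4584 had an unadjusted p under 0.05. Member medians of the log2 difference were 0.07, 0.03 and -0.12. In simulated data this edgeR fit called 7% of 2-fold changes, so the absence of a call does not show an absence of change.

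With the block 1 of 9 (Hif1a, higher), 0 of 9 (3 at an unadjusted p under 0.05) and 1 of 9 (Ldha, lower) were called, against 26.7%, 6.36% and 28.1% of all genes. In the comparison without a call 3874 of the 12755 genes had an unadjusted p under 0.05. Without pool LUL16 there were 2 (Slc2a1 and Tpi1), 1 (Ldha) and 3 (Slc2a1, Tpi1 and Ldha), all lower, against 16.3%, 2.14% and 14% of all genes. Without pool LUL16 and with the block 7 of 9 were called in LPS+ET against LPS, 1 higher (Hif1a) and 6 lower (Slc2a1, Hk2, Tpi1, Eno1, Aldoa and Ldha), where 41.1% of all genes were called. In that fit 3 of 9 (Hif1a, Pfkl and Ldha) were lower for LPS+ET+KU against LPS+ET, beside 22.6% of genes, and 7 of 9 for LPS+ET+KU against LPS, beside 42.4%. The comparisons share gradients, so these counts are not independent of each other.

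**Figure D2:**
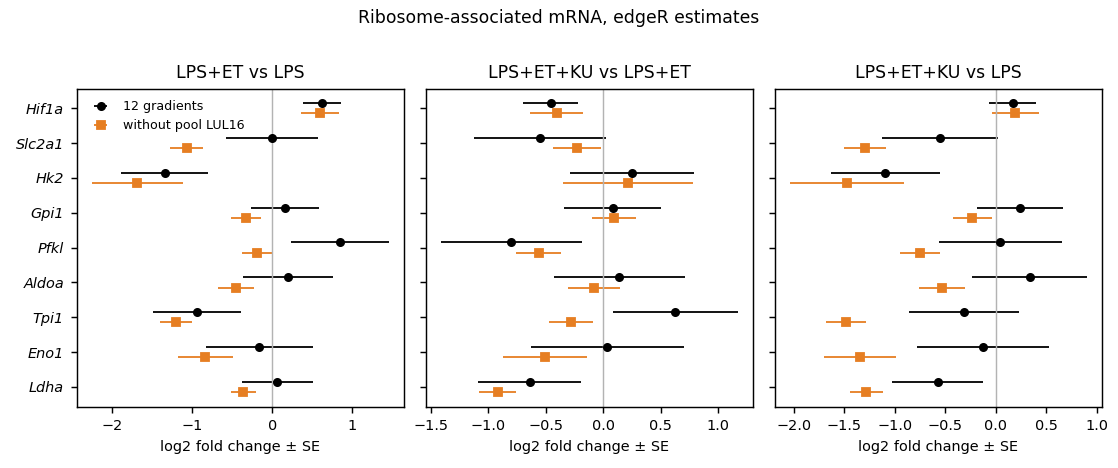
Log2 difference in ribosome-associated level (edgeR, with SE bars) of 9 members in the 3 comparisons, over 12 gradients and without pool LUL16. Error bars of the other glycolysis members shrink without pool LUL16 while those of Hk2 do not (0.55 and 0.57 for LPS+ET over LPS), Hif1a stays at about the same value (0.63 and 0.60 for LPS+ET over LPS), and Slc2a1 moves from 0.00 to -1.07.

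Ribosome classes were compared next, to see whether a change lay in monosomes or in polysomes. In monosomes Ldha was higher after etoposide, with a log2 difference of 1.40 ± 0.42 and adjusted p = 0.03 (not a call) by edgeR over 12 gradients, 1.31 ± 0.21 with adjusted p = 3.72e-05 with the block, and 1.08 ± 0.19 with adjusted p = 0.00195 without pool LUL16. Monosomal Ldha was lower in the inhibitor group than in LPS+ET, at -0.96 ± 0.19 with adjusted p = 0.00236 with the block and -1.18 ± 0.19 with adjusted p = 0.00901 without pool LUL16. Hif1a in monosomes had the same directions, at 0.83 ± 0.14 with adjusted p = 8.8e-05 for LPS+ET over LPS and -0.75 ± 0.14 with adjusted p = 0.00103 for LPS+ET+KU over LPS+ET, both with the block.

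Of the 8 members tested in monosomes, 0, 0 and 0 were called in the 3 comparisons by edgeR without the block, with 2, 1 and 0 at an unadjusted p under 0.05, and DESeq2 called 1 (Ldha, higher), 0 and 0. The shares of all 8932 genes were 9.52%, 0.213% and 5.96% by edgeR and 13.4%, 1.22% and 10.5% by DESeq2. By edgeR 2863, 1204 and 2613 of these genes had an unadjusted p under 0.05. With the block 2, 2 and 1 members were called, the last being Aldoa at 0.63 ± 0.18 with adjusted p = 0.0098, beside 24.6%, 5.62% and 23.2% of genes. Without pool LUL16 the counts were 2, 1 and 1 beside 9.32%, 0.486% and 6.42%, and with the block as well they were 5, 2 and 3 beside 28%, 10.3% and 27.8%. Without pool LUL16 the calls against LPS included Tpi1, lower at -1.25 ± 0.20 with adjusted p = 0.00107 for LPS+ET, and with the block as well Slc2a1 (-1.09 with adjusted p = 0.00828) and Pfkl (-0.57 with adjusted p = 0.005) were also lower in LPS+ET, and all 3 were lower in the inhibitor group.

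In light polysomes none of 8 members was called in any comparison by edgeR or by DESeq2. None had an unadjusted p under 0.05 with either tool, where edgeR had 3233, 1515 and 3199 of 9922 genes. By edgeR 10.6%, 0.292% and 7.13% of these genes were called. The block called 0, 0 and 0 members by edgeR, with 3, 0 and 0 at an unadjusted p under 0.05. Of all genes 25%, 5.35% and 24.1% were then called, and 4626, 2834 and 4693 had an unadjusted p under 0.05. Without pool LUL16 Tpi1 was lower in both etoposide groups than in LPS, at -1.01 with adjusted p = 0.00249 and -0.97 with adjusted p = 0.00499. This gave 1, 0 (1 at an unadjusted p under 0.05) and 1 members beside 11.5%, 0.55% and 7.42% of genes. In the comparison without a call 1645 of 10003 genes had an unadjusted p under 0.05. With the block as well there were 3, 1 and 3 members beside 30.2%, 9.48% and 27.2%, among them Ldha, higher after etoposide at 0.47 and lower in the inhibitor group than in LPS+ET at -0.67.

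In heavy polysomes none of 9 members was called by edgeR or DESeq2 over the 12 gradients, with 2, 0 and 0 members by edgeR and 2, 1 and 0 by DESeq2 at an unadjusted p under 0.05. Here 9.69%, 0.572% and 7.95% of 11368 genes were called by edgeR. At an unadjusted p under 0.05 there were 3610, 1691 and 3745 genes by edgeR and 3734, 1842 and 3903 by DESeq2. With the block Hif1a was higher in LPS+ET than in LPS, at 0.78 ± 0.20 with adjusted p = 0.00832, and Ldha was lower in the inhibitor group than in LPS, at -1.20 ± 0.27 with adjusted p = 0.00315. These were 1, 0 and 1 members beside 20.6%, 3.27% and 21.4% of genes. In the comparison without a call 2 members and 2813 of the 11368 genes had an unadjusted p under 0.05.

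Without pool LUL16 the heavy polysome counts were 2 (Slc2a1 and Tpi1), 0 (1 at an unadjusted p under 0.05) and 3 (Slc2a1, Tpi1 and Ldha), all lower, beside 15.1%, 1.36% and 13.4% of genes. In the comparison without a call 2199 of 11431 genes had an unadjusted p under 0.05. With the block as well the member counts were 8, 1 and 8 of 9 beside 36%, 13.3% and 35.6%, and of these only Hif1a in LPS+ET was higher. Ldha thus differed from LPS in opposite directions along the gradient in that fit, with 1.09 in monosomes, 0.47 in light polysomes and -0.69 in heavy polysomes for LPS+ET against LPS, each called.

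Polysome distribution was then described as the share of each mRNA in heavy polysomes, after every fraction library had been scaled to CPM. Each fraction then weighs alike, so a share gives position relative to other mRNAs and not the part of an mRNA's molecules. The study reported less polysome assembly after etoposide, and such a general fall does not show in these shares. Ldha had 78.1%, 76.7%, 75.5% and 78.8% in heavy polysomes in LPS, 59.9%, 53.2%, 50.3% and 50.4% in LPS+ET and 60.4%, 56.6%, 56.2% and 60.7% in the inhibitor group. Every LPS gradient lay above every gradient with etoposide, pool LUL16 included. The scaled monosome share of Ldha was 9.68 ± 1.94% with LPS alone, 25.6 ± 3.61% in LPS+ET and 17.3 ± 0.971% in the inhibitor group (SD, n = 4), and these groups did not overlap. How many of all genes have groups set apart in this way was not computed for heavy or monosome shares.

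Aldoa, too, was lower in heavy polysomes after etoposide, with 57.1%, 58.4%, 63.0% and 60.5% in heavy polysomes in LPS, 47.6%, 45.8%, 37.6% and 41.7% in LPS+ET and 44.7%, 46.3%, 31.9% and 40.9% in the inhibitor group. Gpi1 had 50.5 ± 1.67%, 41.4 ± 5.30% and 34.1 ± 5.15% in the 3 groups (SD, n = 4). Each LPS gradient was above each etoposide gradient for both enzymes, though neither was called in the limma test of this share given below. That test had 1645 and 1670 of 8000 genes at an unadjusted p under 0.05 for LPS+ET and the inhibitor group against LPS. Hif1a, Pfkl and Slc2a1 had heavy shares above the median of all genes in all 3 conditions. They were 67.7 ± 2.02%, 67.1 ± 2.65% and 74.1 ± 4.79% for Hif1a, 77.3 ± 1.46%, 81.8 ± 0.663% and 78.1 ± 1.96% for Pfkl and 70.2 ± 7.00%, 78.1 ± 1.41% and 79.0 ± 3.77% for Slc2a1. On this scale the median heavy share of all genes with a mean of at least 100 counts was 50.5% to 56.8% in single gradients.

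On a log2 odds scale with limma, over the 8000 genes with enough counts, the CPM-scaled heavy share of Ldha differed by -1.57 ± 0.18 with adjusted p = 0.0023 in LPS+ET against LPS and by -1.28 ± 0.18 with adjusted p = 0.00557 in the inhibitor group against LPS. Ldha was the 1 of 8 tested members called in each of these comparisons, and none was called for the inhibitor group against LPS+ET, where 1 had an unadjusted p under 0.05. The shares of all genes were 0.312%, 0.863% and 0% in that order. In the last comparison 685 of the 8000 genes had an unadjusted p under 0.05. With the block 1, 1 and 0 members were called (2 at an unadjusted p under 0.05 in the last comparison) beside 0.425%, 0.637% and 0% of genes. Without pool LUL16 the Ldha values were -1.58 ± 0.22 with adjusted p = 0.0237 and -1.25 ± 0.22 with adjusted p = 0.0289, so that no member was called, beside 0.05%, 0.0125% and 0% of genes and with 4, 4 and 1 members at an unadjusted p under 0.05.

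Taken from the deposited counts without that scaling, heavy shares depend on how deeply each fraction was sequenced, and the median heavy share of all genes was 30.7% in the LPS+ET gradient of pool LUL16 against 68.4% to 74.3% in the other LPS+ET gradients. On that scale limma called 0 of 8 members and 0% of genes in each comparison, with 1, 3 and 3 members (and 177, 252 and 737 genes) at an unadjusted p under 0.05 for LPS+ET against LPS, the inhibitor group against LPS+ET and against LPS. Without pool LUL16 it called 0 members (3 at an unadjusted p under 0.05), 1 (Gpi1, lower) and 4 (Aldoa, Gpi1, Hk2 and Ldha, lower), beside 0.4%, 2.69% and 2.74% of genes. For LPS+ET against LPS 1488 of 8000 genes then had an unadjusted p under 0.05. Some directions turned with the scaling. From deposited counts Hif1a had heavy shares of 75.3%, 77.4% and 70.2% in LPS, LPS+ET and the inhibitor group, so that its inhibitor group was lowest here and highest after scaling. Ldha was at 68.6% in LPS+ET and 59.8% in the inhibitor group from counts, but at 53.5% and 58.5% after scaling. Slc2a1 and Pfkl in the inhibitor group, at 75.7% and 75.1%, were likewise below LPS (79.4% and 81.8%) from counts and above it after scaling. Aldoa and Gpi1 had the same order of the 3 groups either way.

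**Figure D3:**
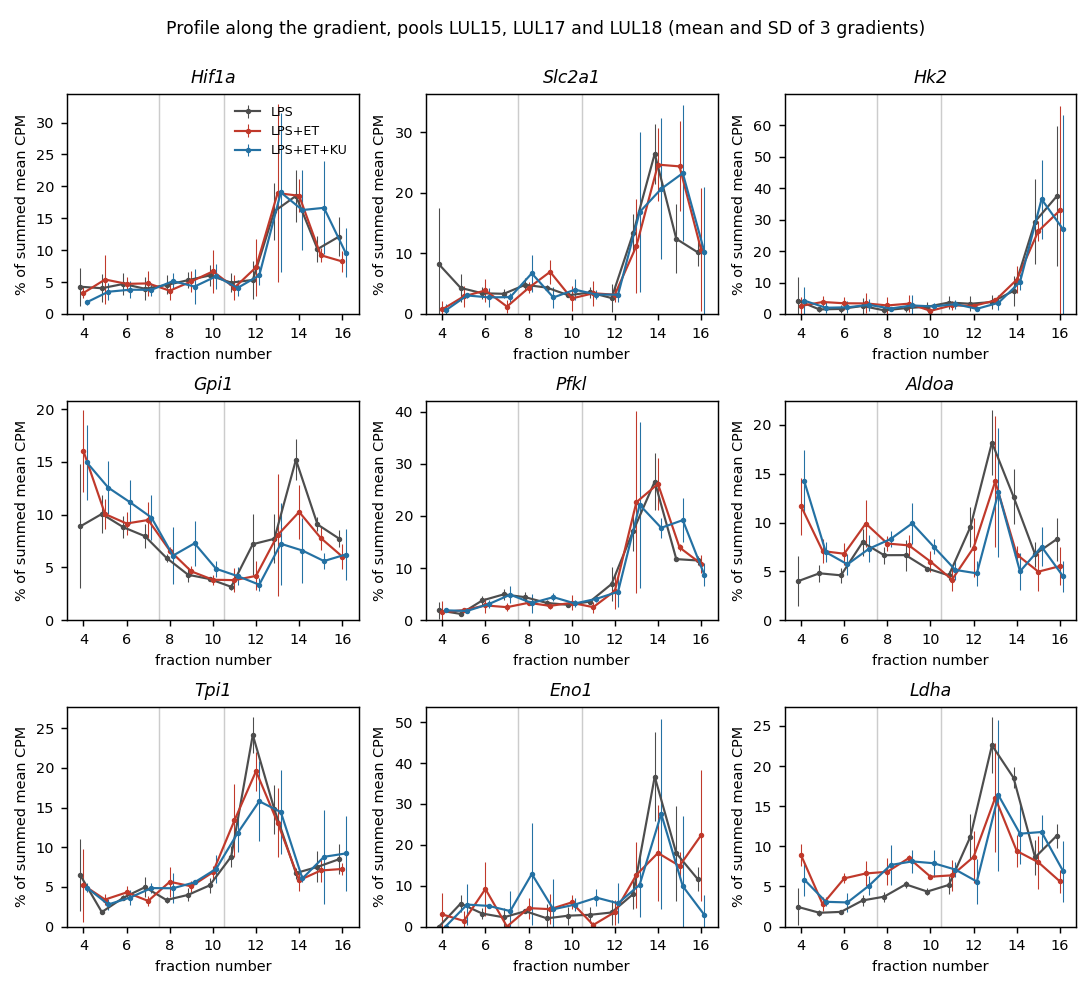
Percent of each mRNA's summed mean CPM in fractions 4 to 16 by condition, as mean and SD of 3 gradients (pool LUL16 left out), with grey lines between monosomes, light and heavy polysomes. Ldha has 18.5% in fraction 14 and 2.45% in fraction 4 in LPS but 9.41% and 8.89% in LPS+ET, Aldoa moves the same way, and the maximum of Hif1a and Pfkl lies in heavy polysomes throughout.

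A test of all 13 fractions at once compared LPS+ET with LPS and LPS+ET+KU with LPS+ET in the single libraries, treating the fraction libraries of a gradient as independent, which they are not. It called Ldha (F = 7.01, adjusted p = 2.04e-08) and Tpi1 (F = 3.18, adjusted p = 0.00206) for LPS+ET against LPS, that is 2 of 9 beside 31% of genes. For LPS+ET+KU against LPS+ET it called 0 of 9 beside 8.01%. There 0 of 9 had an unadjusted p under 0.05, beside 2500 of 10472 genes. The test covers level and shape. For shape alone, the interaction of condition and fraction, 1 of 9 was called, Ldha with adjusted p = 3.08e-06, where 1.37% of genes were, and 0 of 9 where 1.05% were in the other comparison. With a term for each gradient in that model Ldha and Aldoa were called, beside 5.72% of genes, and 0 of 9 in the other comparison, with 3 at an unadjusted p under 0.05, beside 3.63%. Without pool LUL16 the interaction called 2, Ldha with adjusted p = 8.7e-08 and Aldoa with adjusted p = 0.000611, beside 1.76% of genes, and 0 beside 0.67%, also with 0 at an unadjusted p under 0.05.

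With the block the whole-profile test called 5 of 9 (Ldha, Tpi1, Aldoa, Hif1a and Hk2) and 1 of 9 (Ldha), beside 41.7% and 18.3% of genes. Without pool LUL16 it called 5 (Ldha, Tpi1, Aldoa, Slc2a1 and Hif1a) and 1 (Ldha), beside 29.5% and 7.68%. The Tpi1 call was lost on leaving out any of the LPS gradient of pool LUL18 (adjusted p = 0.109) or the LPS+ET gradients of LUL15 (0.103), LUL17 (0.0716) or LUL18 (0.0919).

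The mean fraction, weighted by CPM, summarises position in 1 number. For Ldha it was 12.2, 11.9, 12.1 and 12.5 in LPS, 10.9, 10.4, 10.3 and 10.2 in LPS+ET and 11.1, 10.8, 11.1 and 11.2 in the inhibitor group. The LPS values lay above all etoposide values, and 3 of the 4 inhibitor values lay above all LPS+ET values. The difference between LPS+ET and LPS was -1.74 ± 0.19 fractions (SE), with exact permutation p = 0.0286, the smallest that 70 splits allow, and adjusted p = 0.0964 over the 27 permutation tests made.

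In relation to the 8000 genes with enough counts, Ldha stood above 89.2% of them in LPS, 44.2% in LPS+ET and 61.9% in the inhibitor group. Aldoa went from 59.0% to 18.3% and 15.6%, and Gpi1 from 32% to 12.1% and 6.9%. Hk2 stood above 99.1%, 98.3% and 99.5%, and Hif1a above 79.7%, 79.5% and 91.1%, while the median of all genes was fraction 10.7, 10.6 and 10.7. The exact permutation test over the 12 gradients cannot bring any of these mean-fraction differences past the threshold used.

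**Figure D4:**
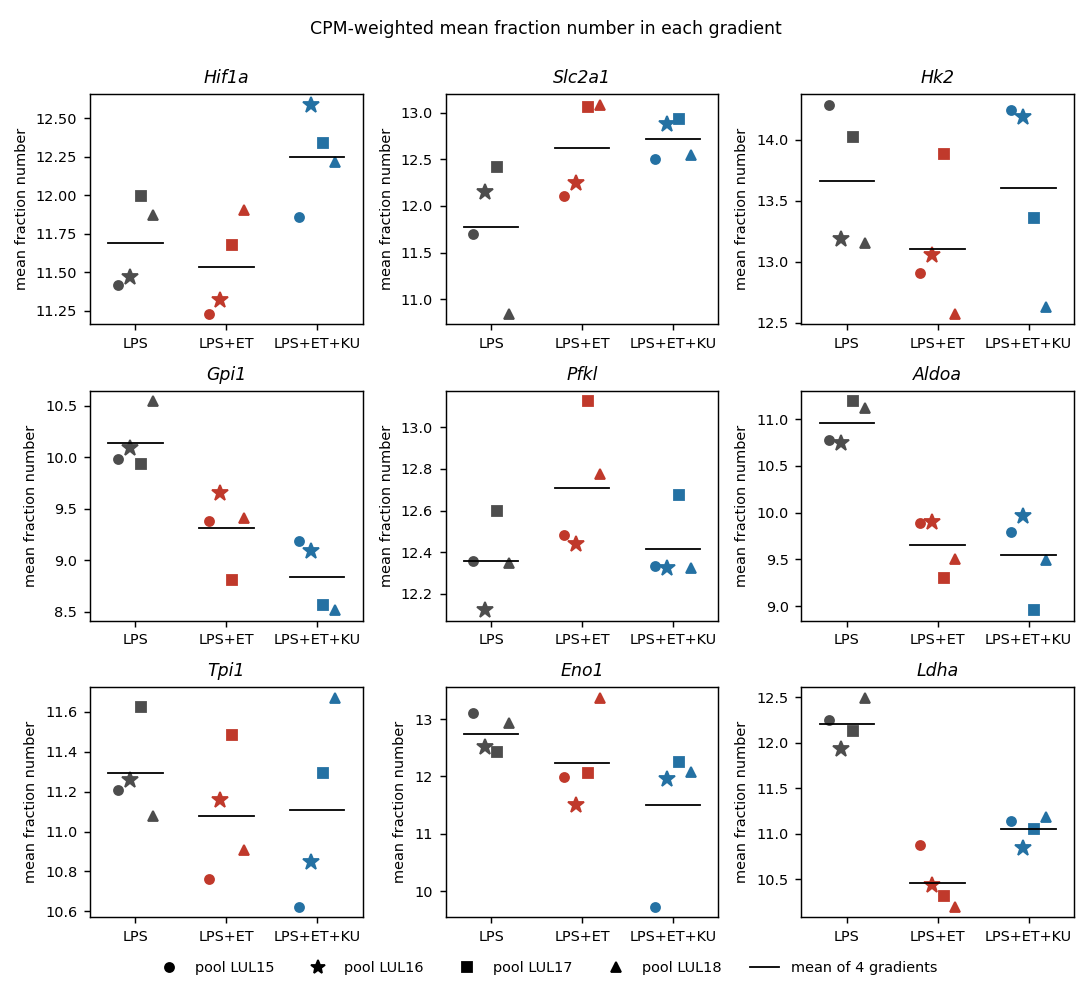
CPM-weighted mean fraction of the 9 members in each gradient by condition, with a marker per pool. For Ldha and Aldoa all 4 LPS gradients lie above all 8 etoposide gradients, pool LUL16 included. The share of all genes that do the same was not computed.

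Other genes of the HIF-1 and glucose pathways were counted from lists. Of 20 testable further glycolysis genes 1 rose after etoposide (Ldhb), 1 fell between LPS+ET and LPS+ET+KU (again Ldhb) and none was called between LPS+ET+KU and LPS by edgeR (6 at an unadjusted p under 0.05, 3 called by DESeq2), against the 12.7%, 0.455% and 10.7% of all genes given above. Ldhb encodes the other lactate dehydrogenase subunit. A near-identical copy in the table had 423 counts beside the 778 of Ldhb, so its values are uncertain. Ldhb had 0.507, 0.617, 0.325 and 0.535 CPM in LPS, 17.4, 3.90, 15.4 and 18.2 CPM in LPS+ET and 2.36, 1.72, 2.17 and 1.65 CPM in the inhibitor group, with no overlap. The log2 differences were 4.61 ± 0.44 with adjusted p = 1.12e-05 for LPS+ET against LPS and -2.81 ± 0.39 with adjusted p = 0.00305 for LPS+ET+KU against LPS+ET.

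Pkm, the pyruvate kinase gene, had differences of 0.26, -0.10 and 0.16 in the 3 comparisons and was not called. Without pool LUL16, 4 of the 20 were called for LPS+ET against LPS, beside 16.3% of all genes. Ldhb (5.05) and Eno2 (1.54) were higher, and Pfkfb3 (-1.65) and Pfkp (-1.41) lower. Gapdh had 259 counts beside 248937 in its near-identical copies, and Pgam1 55 beside 5729, so neither was read.

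Among 8 testable regulators of HIF-1, Epas1, which encodes the sister subunit HIF-2α, rose by 2.03 ± 0.30 (adjusted p = 0.000325) in LPS+ET and by 1.73 (adjusted p = 0.00146) in the inhibitor group over LPS, from a low level of 0.611 to 0.976 CPM in LPS. Arnt, the partner of Hif1a, had -0.15 in LPS+ET against LPS and 0.60 with adjusted p = 0.0933 in the inhibitor group against LPS+ET, where the block gave adjusted p = 0.00735. The prolyl hydroxylase gene Egln1 was lower in LPS+ET than in LPS without pool LUL16, at -0.95 with adjusted p = 0.00865.

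Of 20 testable HIF-1 target mRNAs from a list of 22, 2 rose in LPS+ET over LPS, none was called for the inhibitor group against LPS+ET (1 called by DESeq2, 1 at an unadjusted p under 0.05), and 4 rose in the inhibitor group over LPS by edgeR, beside 12.7%, 0.455% and 10.7% of all genes. Ddit4, an inhibitor of mTORC1 signalling, rose by 1.76 ± 0.31 (adjusted p = 0.00117) and 1.74 (adjusted p = 0.00172) in the etoposide groups over LPS. Hmox1, for haem oxygenase, rose by 1.88 ± 0.33 (adjusted p = 0.00109) and 1.48 (adjusted p = 0.00587). Mxi1 rose by 1.499 ± 0.16 (adjusted p = 5.58e-05) and Hilpda by 2.23 ± 0.52 (adjusted p = 0.00839) in the inhibitor group over LPS alone.

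Pool LUL16 moved the target mRNAs too. On the scale of log2(CPM + 0.1), the ratio of LPS+ET to LPS was above 0 for 20 of 20 targets in pool LUL16, 13 in LUL15, 10 in LUL17 and 7 in LUL18, with medians of 1.48, 0.29, 0.01 and -0.22. For 18 of the 20 the ratio was highest in pool LUL16. These ratios were not computed for all genes, so no background share stands beside them. By CPM, 16 of 20 targets were highest in pool LUL16 in LPS+ET, beside 31.2% of all genes. In LPS it was 2 of 20, beside 19.7%. Vegfa, the endothelial growth factor, had 6.16, 3.86, 6.29 and 7.49 CPM in LPS and 3.76, 17.5, 3.18 and 2.82 CPM in LPS+ET, and Bnip3, a mitophagy receptor, had 62.7, 66.3, 72.0 and 118 CPM and 25.1, 107, 14.7 and 27.3 CPM. Without pool LUL16 both were lower in LPS+ET, at -1.15 with adjusted p = 0.00431 and -2.04 with adjusted p = 0.00197.

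**Figure D5:**
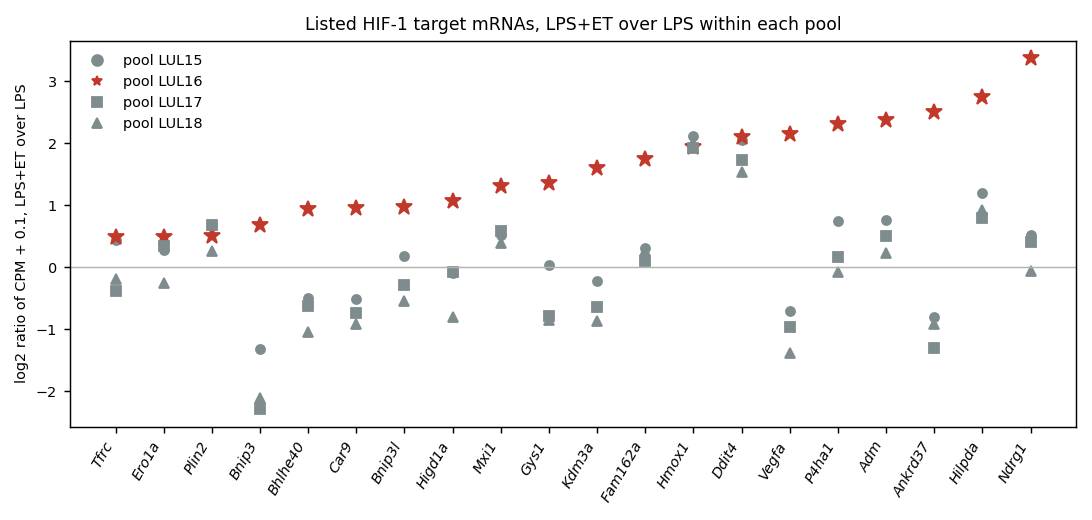
Log2 ratio of LPS+ET to LPS on the CPM + 0.1 scale for 20 listed HIF-1 target mRNAs, a point per pool and pool LUL16 as a red star. All 20 stars lie above 0, with a median of 1.48, against medians of 0.29, 0.01 and -0.22 in the other pools. The ratio was not computed for all genes.

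Markers of other cell types differed in pool LUL16 as well, in both directions. Summed T cell markers had 295 CPM in LPS+ET and 374 CPM in the inhibitor group of this pool, against 82.8 to 139 CPM in the other 6 etoposide gradients, and summed erythroid markers had 89.5 and 177 CPM against 23.2 to 50.5 CPM. Both testable T cell markers were highest there in LPS+ET and 1 of 2 in the inhibitor group, and the 1 testable erythroid marker was in both. Summed myeloid markers were instead lowest there, at 47.6 CPM against 54.3 to 167 CPM in LPS+ET. In the inhibitor group they had 32.9 CPM against 61.4 to 125 CPM. None of 7 testable myeloid genes was highest in pool LUL16 in either group, and of the B cell markers 3 and 5 of 8 were. Among all genes tested 31.2% and 35.1% were highest there. The part of these cells and the part of culture, handling or cell composition in the values of pool LUL16 was not tested.

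Of 11 testable genes at the entry of pyruvate into mitochondria 1 rose in LPS+ET and in the inhibitor group over LPS, the pyruvate dehydrogenase phosphatase gene Pdp1, by 2.05 (adjusted p = 5.45e-05) and 1.38 (adjusted p = 0.0015), beside 12.7% and 10.7% of all genes. Of 8 pentose phosphate genes none was called after etoposide alone by edgeR or DESeq2, with 2 at an unadjusted p under 0.05 by edgeR, and Rpia, for ribose 5-phosphate isomerase, fell by 1.08 (adjusted p = 0.00604) in the inhibitor group against LPS.

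The genes whose fraction profile over 39 points (13 fractions in 3 conditions, means of gradients) was most like that of Hif1a among 7999 genes were Dcaf7, Mpp5, Pfkl, Cpne1 and Canx, with Pearson r of 0.925, 0.919, 0.915, 0.912 and 0.909. For Ldha they were Lyar, Blvra, Cct7, Dnaja2 and Cat, with r of 0.871, 0.862, 0.843, 0.842 and 0.837. Hif1a and Ldha had r = 0.673 with each other, and Hif1a and Gpi1 had 0.0579. All genes share the same libraries at each point, so these values describe likeness only.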

How the data were processed

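PolyRibo-3′ RNA-seq libraries of 13 sucrose gradient fractions were analysed from the deposited table of read counts, whole-number counts per gene and library in which PCR duplicates had been removed by the authors with random bases in the adapter. The submitters' processing notes name GRCm38, TopHat2 2.0.12, TopHat, HTSeq and DESeq2 1.6.3. Of the 157 count columns, 79 matched 1 sample by name and 78 matched a condition and fraction only. Random bases leave fewer duplicates, and a 3′ tag counts a transcript once whatever its length. A fraction 17 library with 777 counts was left out (Aldoa 2 counts, the other members 0, which allows up to 3).

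Counts were summed over fractions 4 to 16, or over a ribosome class, in each of the 12 gradients. Sums were tested with edgeR 4.0.16 (TMM scaling, filterByExpr, quasi-likelihood) in R 4.3.3 on all genes of the table, and Benjamini-Hochberg adjusted p under 0.01 was a call. DESeq2 1.42.0 was the alternative. Fraction profiles were tested with edgeR over single libraries, and heavy polysome shares with limma 3.58.1 on log2 odds with 0.5 added, for genes with a mean of at least 100 counts. Mean fractions were compared with exact two-sided permutation tests (70 splits, smallest p 0.0286). CPM are counts scaled to a gradient total of 1000000, and CPM-scaled shares weight each fraction library alike. Transcript copies were sought with BLAST 2.17.0, and figures drawn with matplotlib 3.10.9.

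The library pool paired the gradients: deviations from group means over 11780 genes had r of 0.367 to 0.850 for the 12 pairs of one pool, and over 0.1 in 8 of 36 pairs of different pools (median -0.222). Fits with the pool as a block, without pool LUL16, without each gradient, without the filter on low counts, and with other scalings were the alternatives. The fits that leave out pool LUL16, with or without the block, were added after seeing the data. So were the CPM-scaled heavy shares with the block and the sum of Eno1 with its copy. All members were named, and of the pathway lists the genes past the threshold, with Arnt, Vegfa, Pkm, Gapdh and Pgam1. Bnip3, Pfkfb3, Pfkp, Eno2 and Egln1 were named after their values were seen. The members and lists were chosen with earlier results of these data known. Scripts were tested on simulated data for LPS+ET against LPS without a block. The level test called 7% of genes changed 2-fold and 93% of those changed 4-fold. The heavy share test called 41% and 100% for such changes of the odds, and the profile interaction 4% and 66%. Level differences of 2-fold or less would thus mostly go uncalled. The limit given for fraction 17 covers counting error only, and SEs come from the spread between gradients.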

Additional observations from a re-analysis of the deposited data

Results flagged for a closer look

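In 19 of 108 groups of 4 gradients (9 members, 3 conditions and 4 measures) the highest or lowest value lay further from its neighbour than Dixon's 95% limit allows, where chance gives about 1 in 20. Of these, 15 were the gradient of pool LUL16.

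In LPS+ET the pool LUL16 gradient was highest for Slc2a1 (79.3 CPM) and Pfkl (904 CPM). In LPS+ET+KU it was highest for Slc2a1 (46.2 CPM), Gpi1 (598 CPM), Pfkl (479 CPM), Aldoa (5157 CPM), Tpi1 (497 CPM), Eno1 (15.9 CPM) and Ldha (373 CPM). In LPS the only such level was Slc2a1 in pool LUL17, at 38.4 CPM.

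In the share of deposited counts that lay in heavy polysomes the pool LUL16 gradient was lowest for Hk2 in LPS (77.0%), for Gpi1 (44.4%), Aldoa (45.7%), Tpi1 (42.0%) and Ldha (53.4%) in LPS+ET, and for Aldoa in LPS+ET+KU (39.3%). The median share over all genes moved with it, at 30.7% in the LPS+ET gradient of that pool.

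After scaling by CPM no position of a pool LUL16 gradient passed that limit. The 3 remaining values were the heavy share of Pfkl in LPS+ET in pool LUL17 (82.7%), its mean fraction in LPS+ET+KU in pool LUL17 (12.7) and the mean fraction of Eno1 in LPS+ET+KU in pool LUL15 (9.73).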

How the results depend on the processing

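Members called by edgeR at an adjusted p under 0.01 are counted here for LPS+ET against LPS, the inhibitor group against LPS+ET, and the inhibitor group against LPS, in this order. From 0, 0 and 0 over all 12 gradients, the pool as replicate block gave 1, 0 and 1 for level, 2, 2 and 1 in monosomes and 1, 0 and 1 in heavy polysomes, and changed no call in light polysomes or in shares of deposited counts. Leaving out pool LUL16 gave 2, 1 and 3 for level, 2, 1 and 1 in monosomes, 1, 0 and 1 in light and 2, 0 and 3 in heavy polysomes, and 0, 1 and 4 for heavy shares. Both together gave 7, 3 and 7 for level, 5, 2 and 3 in monosomes, 3, 1 and 3 in light and 8, 1 and 8 in heavy polysomes. CPM-scaled heavy shares gave 1, 0 and 1, and the same with the block. DESeq2 gave 1 in monosomes after etoposide. Fraction profiles (2 and 0 called) gave 1 for the interaction alone, and 5 and 1 both with the block and without pool LUL16.

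Leaving out a single gradient gave 1 to 5 and 0 to 1 members for profiles, 0 to 1 for level against LPS with the inhibitor, 0 to 1 in monosomes after etoposide, 0 to 1 in heavy polysomes against LPS with the inhibitor, and 0 to 1 and 0 to 3 for heavy shares with the inhibitor against LPS+ET and LPS. All other such counts were 0. The profile count of 5 and the share counts of 1 and 3 came on leaving out the LUL16 gradient of LPS+ET, and the gains in level (Tpi1, -1.53), heavy polysomes (Tpi1, -1.58) and monosomes (Ldha, 1.35) on leaving out that of the inhibitor group.

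Signs turned without pool LUL16. In LPS+ET against LPS, level was -1.07 (-1.06 with the block) for Slc2a1, and with the block -0.46 for Aldoa and -0.37 for Ldha. Heavy polysomes gave -1.18 for Slc2a1 with and without the block, and with it -0.69 for Aldoa, -1.06 for Eno1, -0.49 for Gpi1 and -0.69 for Ldha, and monosomes -0.57 for Pfkl. For the inhibitor group against LPS the blocked fits gave -0.53 (Aldoa) and -0.76 (Pfkl) for level, -0.74 (Pfkl) and -1.50 (Eno1) in heavy polysomes, -0.53 (Pfkl) and -0.97 (Tpi1, also without the block) in light polysomes and -0.49 (Pfkl) in monosomes. The cause was not tested. The Hif1a level in LPS+ET against LPS was between 0.59 and 0.63 with and without the block and pool LUL16. Low-count filtering, DESeq2 size factors, equal weight per fraction and the Eno1 sum changed no call. Equal weight per fraction did turn the heavy polysome median of the members for LPS+ET against LPS from 0.32 to -0.24. Of 9 members 7 were above 0 in the main fit and 2 with equal weight. Counts limit Pgk1 and Eno1.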
